A study of Mus musculus with 11 samples.

Results

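The collagen genes are the protein-coding genes whose symbols follow the pattern of Col, a type number and the number of a chain. They were kept when they reached at least 1 CPM (assigned read pairs scaled to the library total) in at least 5 of 11 RNA-seq libraries. All 44 protein-coding collagen genes of the files passed, out of 15767 genes that passed the same filter and 38393 genes in the files. For 42 of them the level was reached in 11 libraries, for Col28a1 in 9 and for Col6a5 in 7. The rule uses symbols and levels but not genotype.

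The tissue was the mouse eye with lens and cornea dissected away, which leaves retina, retinal pigment epithelium (RPE), choroid, ciliary body and sclera. The animals were 1 to 2 months old and on the C57BL/6 background (C57Bl/6J for the KO line in the study's methods), 5 of them wild type (WT) and 6 homozygous for a germline deletion of the miR-211 precursor (miR-211-/-, below KO). The deletion is carried by every cell of the animal, so that no tissue-specific driver is involved, and the controls were age-matched littermates according to the study's methods. The same methods give 2 male and 3 female WT animals and only males for KO, so that sex and genotype were partly confounded.

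Collagens are secreted or membrane-bound proteins whose chains wind around each other into a helix. Fibrillar collagens build the load-bearing fibrils of the sclera and the fine fibrils of the vitreous. Type IV collagen forms the sheets of basement membranes, among them the lens capsule, the inner limiting membrane and the layer between RPE and choroid. FACIT collagens (fibril-associated collagens with interrupted helices) sit on fibrils, type VI forms beaded filaments, type VIII forms hexagonal networks, and type XVII is a membrane protein that anchors epithelial cells.

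miR-211-5p is a small RNA that represses transcripts carrying a match to its seed, bases 2 to 8. Its relative miR-204-5p, encoded elsewhere and left intact in the KO, has the same seed. Both mature sequences are printed from RefSeq (GRCm38.p6) with the seed in capitals, because a collagen transcript with a match could in principle be bound by either of them. The miR-211 sequence lies at chr7:64205831-64205852 and that of miR-204 at chr19:22750610-22750631, both on the plus strand.
mmu-miR-211-5p: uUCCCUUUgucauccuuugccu
mmu-miR-204-5p: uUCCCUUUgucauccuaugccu
The reverse complement of the seed, AAAGGGA, was searched in the Gencode 3′ untranslated regions of 43 collagen genes and was found in 6 of them (14%). The share among all tested coding genes was 2139 of 14517 (14.7%). For each gene the transcript with the longest coding sequence was used. In Col11a2 and Col18a1 it left only 3 bases to search, too few to hold a match. The sites are shown with 8 bases before and 7 after the match, which is in capitals.
Col15a1 (chr4:47312771-47312792, plus strand): agccagggAAAGGGAtccgctc
Col27a1 (chr4:63333336-63333357, plus strand): ttgtggggAAAGGGAagagatg
Col4a3 (chr1:82721543-82721564, plus strand): gactgctcAAAGGGAccccgct
Col5a1 (chr2:28037178-28037199, plus strand): gagagaacAAAGGGAaagagcc
Col6a1 (chr10:76709424-76709445, minus strand): actgtcttAAAGGGAacgctga
Col6a6 (chr9:105688272-105688293, minus strand): cgggaaggAAAGGGAgccatgt
These are letter matches and not shown binding sites. The transcripts are a basement membrane associated multiplexin (Col15a1), a minor fibrillar chain (Col27a1), a type IV chain (Col4a3), a chain of the type V fibril core (Col5a1) and a pair of type VI chains (Col6a1 and Col6a6).

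Basement membrane chains are encoded in head-to-head pairs, which are shown because the levels of the partners are compared below. Col4a1 on the minus strand and Col4a2 on the plus strand share 22 bases of annotated exon at their starts (chr8:11312805-11312826). The sequence is printed on the plus strand with the GGGCGG box in capitals. Gene starts are those of Gencode and the bases those of RefSeq (GRCm38.p6).
Col4a1 and Col4a2 shared start: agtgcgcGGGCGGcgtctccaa
The starts of Col4a4 and Col4a3 are separated by 71 bases (chr1:82586850-82586920), in which no GGGCGG box, no CCAAT box and no TATAAA box was found on either strand.
Col4a4 to Col4a3 interval: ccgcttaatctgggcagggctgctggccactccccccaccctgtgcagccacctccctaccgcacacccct
The starts of Col4a6 and Col4a5 on chromosome X are 1308 bases apart. The 250 bases before RefSeq starts were searched, with 38 windows for 35 collagen genes. GGGCGG occurred in 57.9% of these windows against 55% of the 15077 windows of tested genes. CCAAT occurred in 34.2% against 34.8%, and TATAAA in 13.2% against 6.94%, the last in 5 genes only (Col3a1, Col10a1, Col11a2, Col13a1 and Col17a1).

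Library totals ran from 20282241 to 36317673 assigned read pairs, and 1 CPM stood for 20.3 to 36.3 read pairs. The count of the Mir211 gene was 0 in all 11 libraries, WT included, and the files therefore cannot check the deletion. Its host gene Trpm1 was at 330.7 to 495.6 CPM in WT and 412.7 to 464.9 CPM in KO. The column names of a supplementary table separate the libraries into a series named by mouse number (WT 1, WT 2, KO 1, KO 2 and KO 3) and a series named by age (WT 3, WT 4, WT 5, KO 4, KO 5 and KO 6). What the names stand for in preparation is not stated. Xist was at 1248, 795.6 and 1636 CPM in WT 1, WT 3 and WT 5 and at most 1.295 CPM in the other 8 libraries.

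Libraries differed in markers of tissues other than those the labels name. The lens crystallin gene Cryaa was at 38370 CPM in WT 4, 11780 CPM in KO 3 and 1896 CPM in KO 6, and at 1.731 to 30.73 CPM in the other 8. The summed level of 7 lens markers ranged from 110.1 to 87040 CPM in WT and from 117.4 to 25410 CPM in KO. The corneal keratin gene Krt12 was at 2956 to 3514 CPM in WT 2, WT 4, KO 1, KO 2 and KO 3, at 405.7 to 710.1 CPM in 5 libraries of the age series, and at 4.257 CPM in WT 1. The sum of 7 muscle markers ranged from 806.7 to 6884 CPM in WT and 755.6 to 5778 CPM in KO. The sum of 5 adipocyte markers ranged from 9.89 CPM (WT 3) to 415.3 CPM (WT 1) in WT and from 9.142 to 202.2 CPM in KO. The log2 fold change was below 0 for 5 of 5 adipocyte, 7 of 7 lens and 7 of 7 muscle markers, beside 48.9% of all genes. Their medians were -2.01, -2.19 and -0.53, and 0 were called, beside 0.00634% of all genes. It was below 0 for 3 of 7 corneal and conjunctival, 3 of 4 endothelial and 1 of 3 RPE markers. The negative lens median rests on WT 4. Among the other WT libraries the lens sum was at most 278.2 CPM (WT 1), below KO 3 (25410 CPM) and KO 6 (3748 CPM). The sum of 4 endothelial markers ranged from 176.6 to 289.4 CPM in WT and from 170.4 to 251.6 CPM in KO. Of the tissues that the labels do name, 3 RPE markers summed to 864.8 to 1231 CPM. The part of these tissues in the collagen levels was not tested. In whole tissue, fewer cells of a type and less RNA per cell cannot be told apart.

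Collagen transcripts made up 0.255% to 0.63% of all assigned counts, with a median of 0.332%. On the scale of FPKM (fragments scaled by transcript length and library total, which allows genes to be compared), the 44 genes summed to between 508.7 and 1177, with means of 772.9 ± 243.3 for WT and 682.8 ± 185.7 for KO (SD, n = 5 and 6). Fibrillar collagens held the largest mean share of this sum, and the largest share in each library except KO 6, where type IV genes stood at 21.9% and fibrillar genes at 21.1%. Their 11 genes made up 36.4% ± 7.03 (SD, n = 11) of collagen FPKM, with a range from 21.1% to 46.8%. The 9 FACIT genes followed with 16.3% ± 3.29, the 6 type IV genes with 13.1% ± 5.35 and the 6 type VI genes with 11.1% ± 1.06 (SD, n = 11 each). The 4 network and anchoring genes held 9.31% ± 1.95, the 4 transmembrane collagens 8.68% ± 2.18 and the 2 multiplexins 4.75% ± 1.13 (SD, n = 11 each). The remaining 2 genes, Col26a1 and Col28a1, held 0.365% ± 0.142. The fibrillar share was 39.0% ± 4.11 in WT (n = 5) and 34.2% ± 8.53 in KO (n = 6). The type IV share was 19.9% to 22.1% in the 3 libraries highest in crystallins and 8.90% to 11.4% in the other 8.

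**Figure D1:**
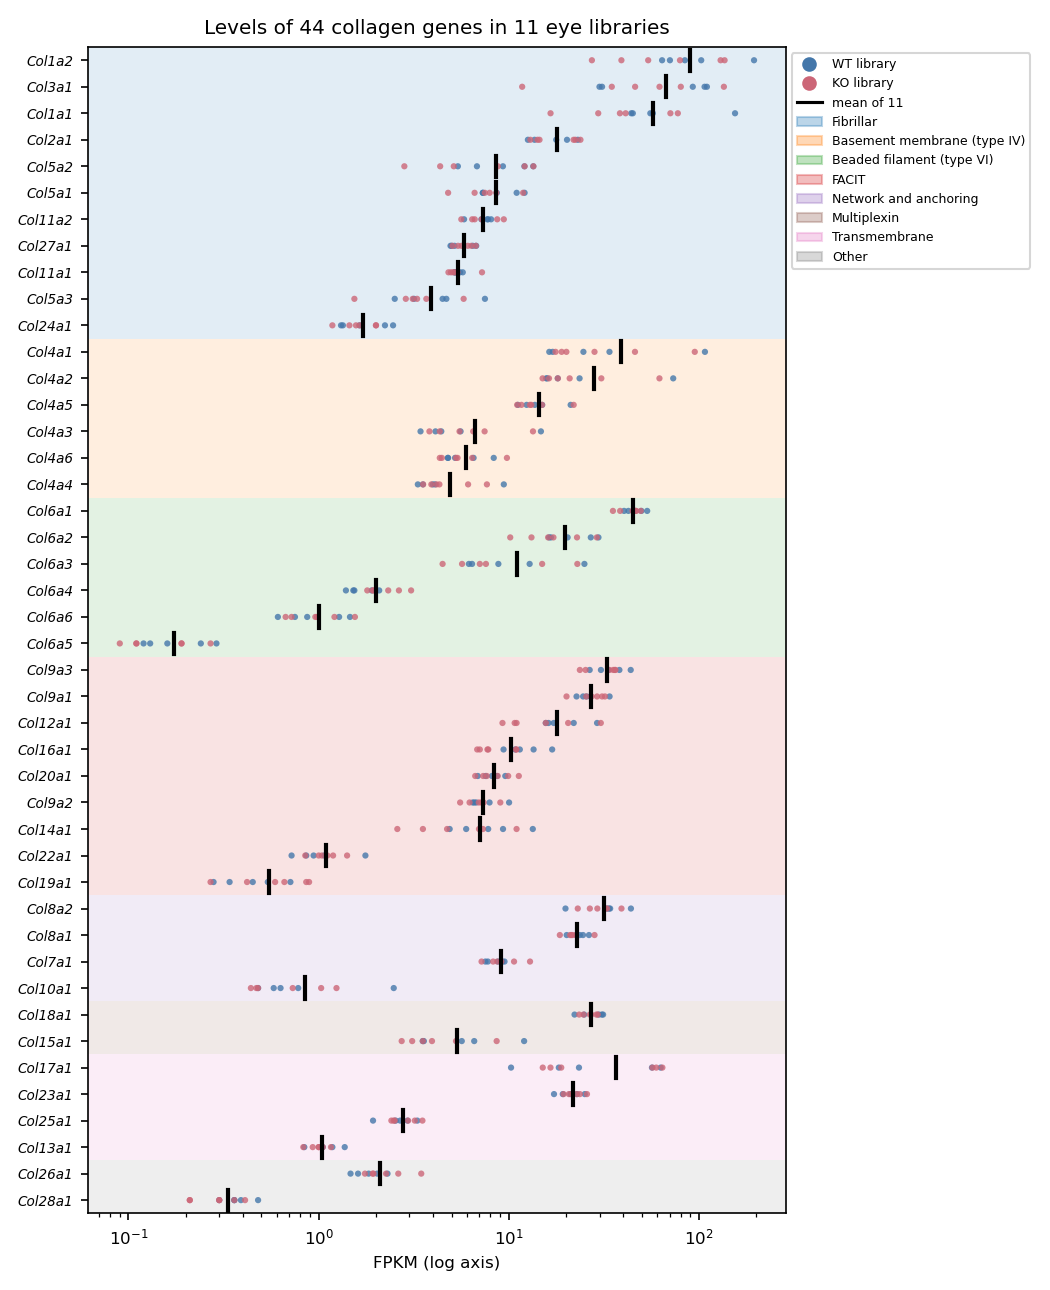
Level of each of the 44 collagen genes in FPKM (log axis), 1 point per library (blue WT, n = 5, red KO, n = 6), with a bar at the mean of 11, grouped by structural class. Mean levels run from 0.173 FPKM for Col6a5 to 89.1 FPKM for Col1a2, and the points of Col1a1, Col3a1, Col4a1 and Col17a1 spread far more widely than those of Col23a1 or Col18a1.

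By mean FPKM the highest genes were those of types I and III, Col1a2 at 89.1 ± 48.8, Col3a1 at 67.2 ± 40.1 and Col1a1 at 57.2 ± 36.6 (SD, n = 11). These 3 neighbours in the order overlapped in their library values, but Col1a1 lay below Col1a2 in each library (FPKM ratio 0.518 to 0.795). By median FPKM Col6a1 stood between Col3a1 and Col1a1. Col6a1, a chain of the beaded filaments found in most connective tissues, was at 44.8 ± 5.31 FPKM and varied little. Col4a1 (38.6 ± 32.3 FPKM) and Col17a1 (36.6 ± 22.7 FPKM) ranked 5 and 6 by the mean but 9 and 10 by the median. Col4a1 was far above its median in 3 libraries and Col17a1 in 5. The next were Col9a3, a chain of type IX on the fibrils of vitreous and cartilage, at 33.0 ± 6.01 FPKM, and Col8a2, a chain of the network under the corneal endothelium, at 31.5 ± 6.78 FPKM. At the other end stood Col6a5 with 0.173 ± 0.0692 FPKM, Col28a1 with 0.335 ± 0.0815, Col19a1 with 0.546 ± 0.218 and Col10a1, the collagen of hypertrophic cartilage, with 0.849 ± 0.597. The lowest 4 genes, like the highest 3, overlapped in their library values with their neighbours in the order.

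Collagen genes differed between libraries more than most genes. The ratio of the highest to the lowest library had a median of 2.46 over the 44 genes and of 1.54 over all genes tested. It exceeded 5 for 10 of 44 collagen genes, against 6.05% of all genes, and it was under 2 for 16 of 44, against 74.0% of all genes. These values describe the libraries without regard to genotype. The WT 4 library held the highest value of 19 of the 44 genes, where 9.27% of all genes had their highest value. Lowest values fell most often in KO 6 (14 of 44), and the matching share over all genes was not computed.

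**Figure D2:**
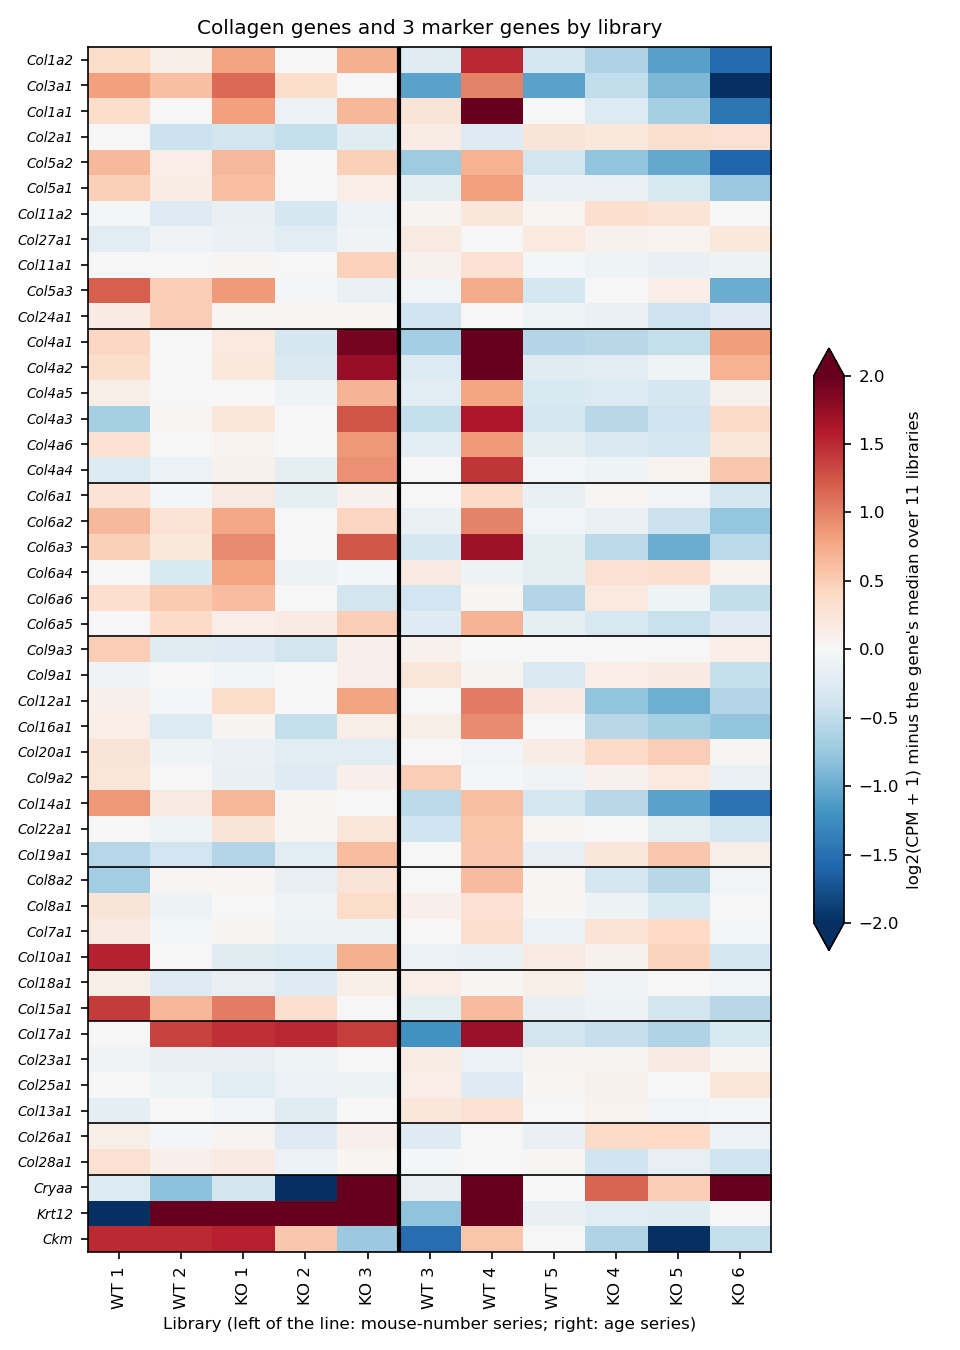
Level of the 44 collagen genes and of 3 marker genes (Cryaa lens, Krt12 cornea, Ckm muscle) in each library, as log2(CPM + 1) minus the median of the gene over 11 libraries. Colours beyond 2 in either direction are cut off, horizontal lines part the structural classes and the vertical line parts the 2 library series. The 6 type IV genes are red in WT 4 and KO 3, most strongly Col4a1 and Col4a2. The type I, III and V genes are pale or blue in most of the age series other than WT 4.

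Type I fibrils, the main load-bearing element of the sclera, are built from the chains of Col1a1 and Col1a2. In WT 1 to WT 5, Col1a1 stood at 335.9, 261.9, 312.5, 1052 and 259.4 CPM. The KO libraries KO 1 to KO 6 gave 461.9, 240.2, 417.1, 216.8, 165.6 and 94.97 CPM. WT 4 was far above every other library. KO 1 and KO 3 lay between WT 4 and the other WT libraries, and the remaining 4 KO libraries lay below all WT values. Col1a2 moved with it, at 534.9, 445.5, 348.1, 1179 and 326.6 CPM in WT and 722.5, 412.5, 674.9, 269.6, 193.3 and 139.8 CPM in KO. In edgeR's likelihood-ratio test the log2 fold change of KO against WT was -0.74 (SE 0.47) for Col1a1 and -0.50 (SE 0.47) for Col1a2, with adjusted p = 1.00 for both. Two-sided exact permutation tests gave p = 0.234 and p = 0.299. Without WT 4 the changes were -0.15 (SE 0.38) and -0.05 (SE 0.44), and without KO 6 that of Col1a2 was -0.32.

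Col3a1 encodes the type III collagen of compliant tissue such as vessel walls, muscle sheaths and fascia. Its WT values of 605.8, 519, 163.4, 682.9 and 162.4 CPM fell into a high and a low part. The KO values were 757.3, 440.3, 343.3, 245, 183 and 63.18 CPM, with the 3 highest in the series named by mouse number. With WT 4, the 5 libraries of that series were thus the 6 highest, and the groups overlapped (log2 fold change -0.33, SE 0.56, edgeR adjusted p = 1.00). Its change was -0.74 without KO 1, -0.54 without WT 3 or WT 5, -0.21 without KO 5, -0.17 without WT 1, -0.12 without KO 6 and -0.10 without WT 4. Muscle marker sums were lowest in WT 3 and KO 5 and highest in WT 1.

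Col5a1 and Col5a2 encode the type V chains that start fibrils and set their width, and Col5a3 a further type V chain. Col5a2 ranged from 33.47 to 90.06 CPM in WT (median 61.0) and from 17.66 to 87.05 CPM in KO (median 43.4). Col5a1 varied less, between 39.1 CPM in KO 6 and 117.2 CPM in WT 4. Col5a3 was at 45.27, 27.22, 18.31, 32.71 and 14.76 CPM in WT and at 35.36, 18.82, 17.39, 19.16, 21.11 and 9.104 CPM in KO, with WT 1 highest, KO 6 lowest and the groups overlapping. Its log2 fold change was -0.46 (SE 0.34, edgeR adjusted p = 1.00), or -0.21 without WT 1, -0.31 without KO 6 and -0.69 without KO 1.

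The other fibrillar collagens were steadier. Col2a1, the main fibril collagen of vitreous and cartilage, ranged from 50.99 to 82.4 CPM in WT and from 49.61 to 86.23 CPM in KO, a 1.74-fold range over all libraries. Col11a1 and Col11a2, which encode type XI chains, had ranges of 1.53-fold and 1.61-fold. For both the WT and KO values overlapped over most of their extent, with 1 high value of Col11a1 in KO 3 (53.42 CPM). The minor fibrillar chain of Col27a1 ranged only 1.36-fold, and that of Col24a1 2.00-fold.

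Type IV genes were high in the libraries high in lens markers. Col4a1 was at 219.8, 164.5, 101.9, 816.7 and 109.7 CPM in WT and at 188.3, 130.8, 625, 111.3, 118.1 and 294.7 CPM in KO. Col4a2, whose chain joins that of Col4a1 in nearly all basement membranes, was at 149.8, 117.4, 96.53, 542.3 and 98.98 CPM in WT and 135.9, 95.89, 396.4, 100.2, 110.6 and 190.3 CPM in KO. The 3 highest libraries of both genes were WT 4, KO 3 and KO 6, which are the 3 libraries with Cryaa above 1000 CPM, and they ranked in the same order as Cryaa. Col4a3 and Col4a4, whose chains join that of Col4a5 in the membranes of kidney, inner ear and eye, had their 3 highest values in the same libraries (61.2 to 144.3 CPM and 34.35 to 64.17 CPM). For Col4a5 and Col4a6, the pair on chromosome X, 2 of the 3 highest were among them. The part of lens tissue in the type IV levels was not tested.

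**Figure D3:**
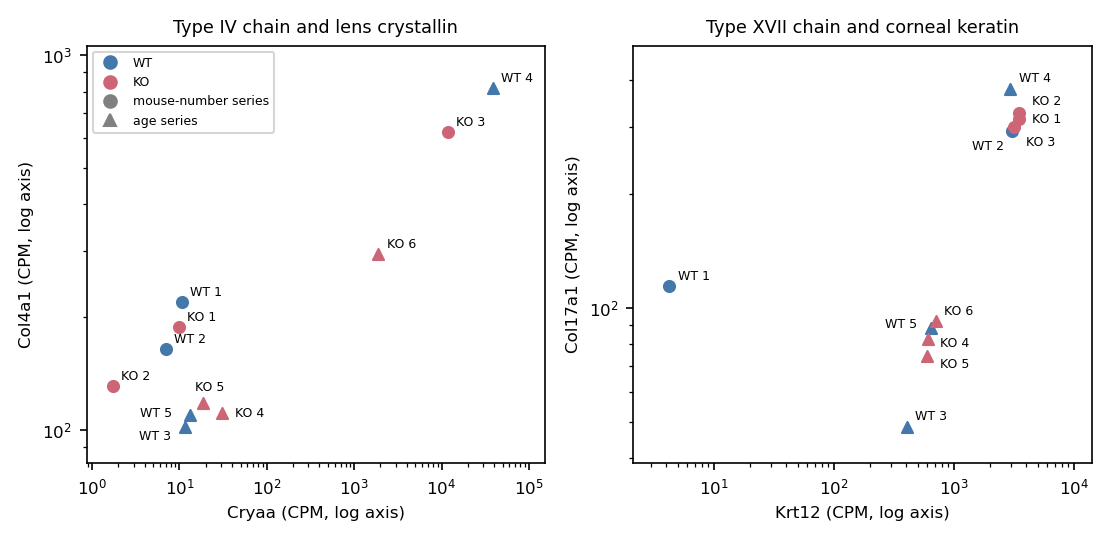
Left, Col4a1 against the lens crystallin gene Cryaa, and right, Col17a1 against the corneal keratin gene Krt12, in CPM on log axes, 1 point per library (blue WT, red KO, circles the mouse-number series, triangles the age series). Col4a1 is at 294.7 CPM or more only in the 3 libraries with Cryaa above 1000 CPM, and Col17a1 is at 292.9 CPM or more only in the 5 libraries with Krt12 of 2956 CPM or more.

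No type IV gene passed the test between KO and WT. Log2 fold changes of the 6 genes ran from -0.23 to -0.03, with the smallest unadjusted p at 0.662. For Col4a1 the change was -0.21 (SE 0.61) and for Col4a2 -0.23 (SE 0.52), each with adjusted p = 1.00 in edgeR. Leaving out WT 4 turned the signs, to 0.71 (SE 0.50) for Col4a1 and 0.56 (SE 0.40) for Col4a2, again short of the threshold (adjusted p = 0.999).

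Type VI genes showed both patterns. Col6a1, at 160.7 to 233.5 CPM in WT and 139.2 to 203.2 CPM in KO, had a 1.68-fold range, while its partner Col6a2 ranged 3.44-fold and Col6a3, whose long chain completes the filament, 6.70-fold. Col6a3 reached 153.4 CPM in WT 4 and 112 CPM in KO 3 and fell to 22.88 CPM in KO 5. Col6a4, Col6a5 and Col6a6 encode long chains that can stand in for the one from Col6a3 and were at 0.173 to 2.01 mean FPKM. Col6a4 was the gene of the class with the smallest p, at 9.862, 7.829, 11.31, 9.081 and 8.497 CPM in WT and 17.68, 9.069, 9.623, 12.47, 12.78 and 10.43 CPM in KO. Its groups overlapped, and the log2 fold change of 0.36 (SE 0.20) had an adjusted p = 1.00 in edgeR, with p = 0.0866 in a two-sided exact permutation test. Without KO 1, its highest library, the change was 0.22. Opposite-strand genes share 3.39% of its exon bases.

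The FACIT class also held steady and variable genes. Col9a1, Col9a2 and Col9a3, the chains of type IX, ranged 1.65-fold, 1.72-fold and 1.83-fold, and Col20a1 1.67-fold. Col12a1 and Col14a1, which decorate type I fibrils in dense connective tissue, ranged 4.09-fold and 5.45-fold. Col16a1, a minor FACIT collagen of fibroblasts and smooth muscle, gave the smallest p of the 44 genes. It was at 41.54, 31.19, 41.07, 73.85 and 37.93 CPM in WT and at 39.48, 26.85, 41.34, 25.64, 23.59 and 21.48 CPM in KO. The 4 lowest values were KO libraries and the highest was WT 4, but KO 1 and KO 3 lay among the WT values. Its log2 fold change was -0.60 (SE 0.25, p = 0.0153), with adjusted p = 1.00 in edgeR's likelihood-ratio test and p = 0.0433 in a two-sided exact permutation test. Without WT 4 the change was -0.36 (SE 0.21, edgeR adjusted p = 0.999) and the unadjusted p no longer fell under 0.05.

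Of the network and anchoring collagens, Col8a1 and Col7a1 were even and Col8a2 and Col10a1 less so. Col8a1 ranged 1.60-fold and Col7a1, the collagen of anchoring fibrils under stratified epithelia, 1.42-fold. Col8a2 was at 84.92 to 215.1 CPM in WT and 94.13 to 166.2 CPM in KO, with both extremes in WT libraries (WT 1 and WT 4, a 2.53-fold range). Col10a1 stood at 7.627 CPM in WT 1 and 1.323 to 3.841 CPM elsewhere, a 5.77-fold range. The multiplexin Col18a1, which carries the endostatin domain and is abundant in the membranes of RPE and ciliary body, ranged only 1.32-fold, between 118.5 and 156.5 CPM. Col15a1, its relative around muscle fibres and vessels, ranged 4.11-fold, with its highest values in WT 1 (45.41 CPM) and KO 1 (34.91 CPM), which were also high in muscle markers.

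Col17a1 encodes a hemidesmosome protein of basal epithelial cells. It was at 292.9 and 380.1 CPM in WT 2 and WT 4 and at 315.7, 327 and 300.7 CPM in KO 1, KO 2 and KO 3. The other 6 libraries lay between 48.46 and 114.1 CPM. The 5 high libraries were the 5 with the highest Krt12 and belonged to both genotypes, and the log2 fold change was 0.11 (SE 0.58, edgeR adjusted p = 1.00). Its sign turned, to between -0.14 and -0.03, when any 1 of WT 1, WT 3, WT 5, KO 1, KO 2 and KO 3 was left out, and it was 0.54 without WT 4. WT 1, with Krt12 at 4.257 CPM, still held 1645 CPM of Krt5 and 622.1 CPM of Krt13, keratins of stratified epithelium, and 114.1 CPM of Col17a1. The part of corneal and conjunctival tissue in these values was not tested. The transmembrane collagens Col23a1 and Col25a1, the latter made by neurons, had ranges of 1.26-fold and 1.45-fold, and Col23a1 was the steadiest of the 44 genes (118.6 ± 10.8 CPM in WT, n = 5, and 121.2 ± 9.36 CPM in KO, n = 6). Col28a1, a minor collagen outside the other classes, was among the 5 genes with the smallest p. It was at 2.022, 1.64, 1.425, 1.455 and 1.492 CPM in WT and at 1.758, 1.264, 1.51, 0.8631, 1.18 and 0.8559 CPM in KO. The 4 lowest values were KO libraries, the groups overlapped, and the log2 fold change was -0.39 (SE 0.24, edgeR adjusted p = 1.00).

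In 5 of 9 pairs of chains that join in 1 molecule, the ratio of the chains ranged less over the libraries than either chain did. The FPKM ratio of Col1a1 to Col1a2 lay between 0.518 and 0.795 (median 0.606), a 1.53-fold range, while the genes themselves ranged 11.1-fold and 8.43-fold. For Col4a1 to Col4a2 the ratio lay between 1.02 and 1.53, a 1.50-fold range, beside 8.01-fold and 5.66-fold for the genes. The ratio of Col4a3 to Col4a4 ranged 1.79-fold, beside 4.99-fold and 3.36-fold. Tightest of the 9 ratios was that of Col4a5 to Col4a6, at 2.24 to 2.63 (1.17-fold), beside 2.21-fold and 2.38-fold. The ratio of Col5a1 to Col5a2 ranged 2.40-fold, also less than either chain. For Col6a1 to Col6a2 (1.68 to 3.47) and Col8a1 to Col8a2 (0.539 to 1.33) the range of the ratio lay between those of the chains. For the pairs of Col9a1 with Col9a3 and Col11a1 with Col11a2 it was above both. Mean ratios of WT and KO differed by less than 1 SD in all 9 pairs, for example 0.673 ± 0.128 (n = 5) and 0.617 ± 0.0953 (n = 6) for Col1a1 to Col1a2. Ratios of counts gave nearly the same ranges. Libraries, not genotypes, are the points of this description, and it carries no test.

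**Figure D4:**
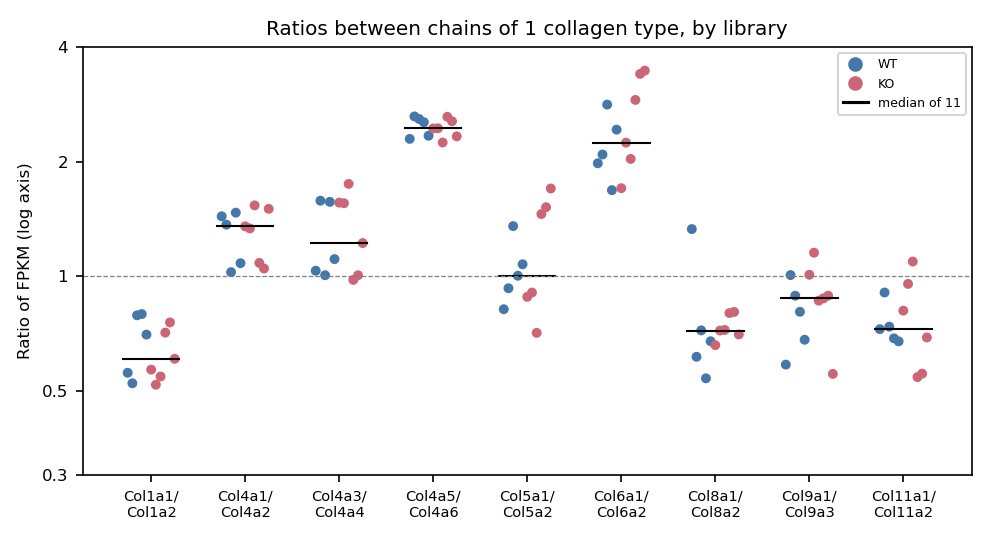
Ratio of FPKM between the chains of 9 pairs in each library (log axis), 1 point per library (blue WT, red KO), with a line at the median of 11. The points of Col4a5 to Col4a6 lie between 2.24 and 2.63 and those of Col1a1 to Col1a2 between 0.518 and 0.795, with both genotypes interleaved in every pair.

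Over all 44 genes, KO against WT gave no call. At an adjusted p under 0.1 in edgeR's likelihood-ratio test, 0 of 44 collagen genes were called, where 0.00634% of all genes tested were called (1 of 15767). edgeR's quasi-likelihood test and DESeq2 also called 0 of 44, beside 0% and 0.0127% of all genes. At an unadjusted p under 0.05, 1 collagen gene was lower in KO (Col16a1) and 0 were higher, beside 1.77% and 0.323% of all genes. None of the 44 had WT and KO values that did not overlap (0.0761% of all genes lay with KO below and 0.108% with KO above). The log2 fold change was below 0 for 34 of 44, with a median of -0.15, beside 48.9% of all genes and a median of 0.0027. With library sizes in place of TMM factors, 26 of 44 were below 0, beside 34.4% of all genes, and without WT 4, 27 of 44 were below 0 (49.9% of all genes) with a median of -0.04. By class the median was -0.30 for fibrillar genes (9 of 11 below 0), -0.28 for multiplexins (2 of 2), -0.22 for type VI (5 of 6), -0.15 for network and anchoring genes (3 of 4) and -0.14 for FACIT genes (7 of 9). It was -0.08 for type IV (6 of 6) and 0.03 for transmembrane collagens (1 of 4). Genes with a seed match had a median of -0.09 (6 of 6 below 0) and those without one -0.14 (27 of 37 below 0). Among all tested coding genes the medians were 0.02 with a match (42% below 0) and -0.00 without one (50.9% below 0).

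**Figure D5:**
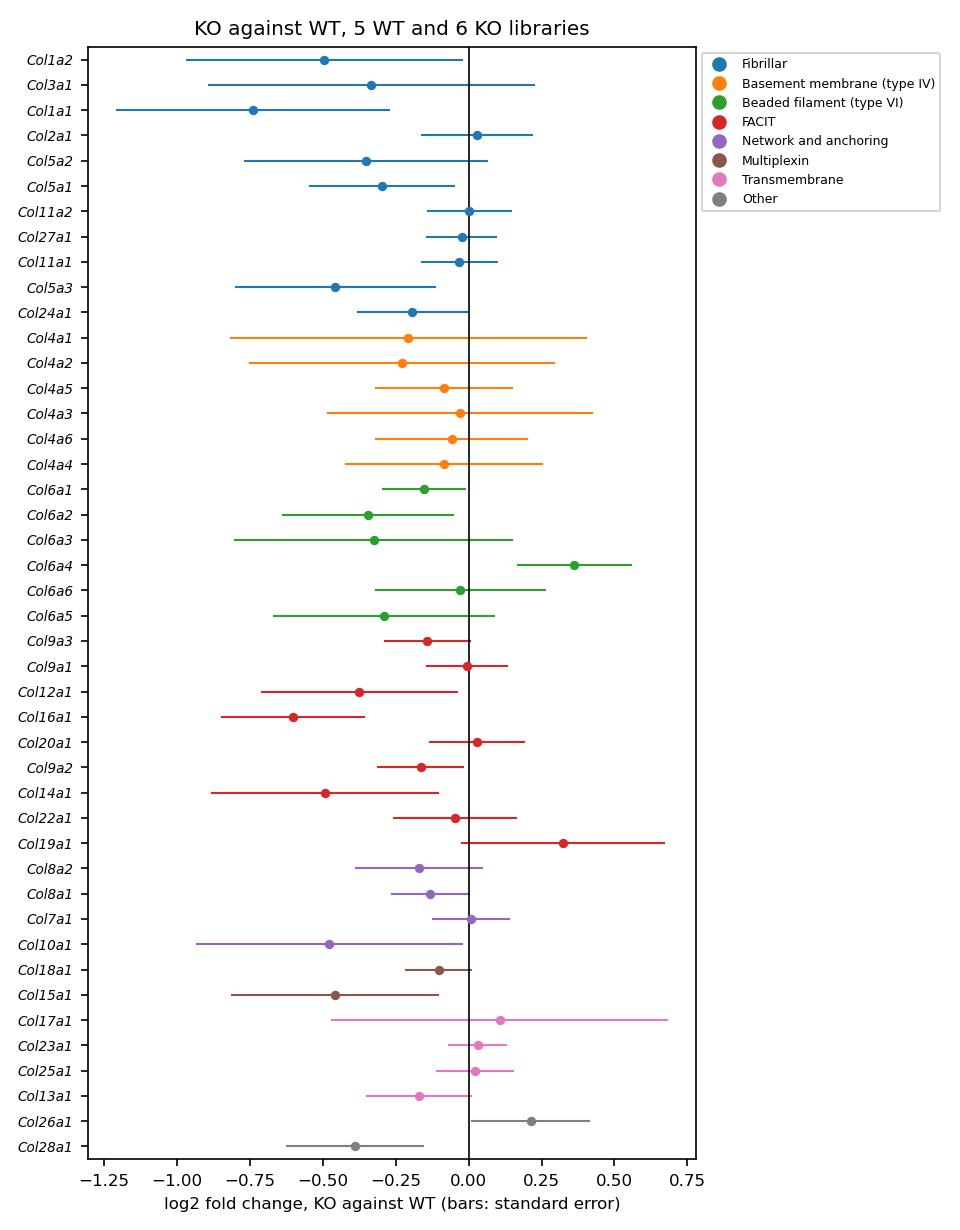
Log2 fold change of KO against WT for each collagen gene, with bars of 1 SE from the edgeR fit to 5 WT and 6 KO libraries, coloured by structural class. Most points lie left of 0, from -0.74 for Col1a1 to 0.36 for Col6a4, and no gene passed the threshold after adjustment.

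The comparison was repeated within each library series, since several collagen genes differed between them. In the series named by mouse number (2 WT, 3 KO), 0 of 44 genes were called (0.0444% of all genes), the median was -0.01 and 23 of 44 were below 0 (49.5% of all genes). In the series named by age (3 WT, 3 KO), 2 of 44 were called, beside 0.241% of all genes, the median was -0.33 and 31 of 44 were below 0 (49.2% of all genes). Both called genes were FACIT collagens lower in KO, Col12a1 with a log2 fold change of -1.25 (SE 0.29, edgeR adjusted p = 0.0201) and Col16a1 with -1.10 (SE 0.27, edgeR adjusted p = 0.0464). In these libraries Col12a1 was at 90.48, 187.1 and 101 CPM in WT and at 51.96, 45.69 and 60.07 CPM in KO. The groups did not overlap, and WT 4 was well above the other WT values. In the other series Col12a1 was at 97.41 and 88.95 CPM in WT and at 116.4, 90.2 and 158.6 CPM in KO, so that all 3 KO values lay above the lower WT value. There its log2 fold change was 0.39 (SE 0.28, edgeR adjusted p = 0.999). For Col16a1 the change in that series was -0.02 (SE 0.26, edgeR adjusted p = 0.999).

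Without WT 4 the age series still called Col12a1 (-0.87, SE 0.14, edgeR adjusted p = 7.4e-07) and Col16a1 (-0.75, SE 0.13, edgeR adjusted p = 2.39e-05), beside 0.368% of all genes. The median over the 44 genes was then -0.04, and 27 of 44 were below 0 (48% of all genes). The 2 WT libraries left in it, WT 3 and WT 5, were both high in Xist and all KO libraries low, so that sex and genotype cannot be told apart there. In the whole age series, with WT 4 included, all KO values lay below all WT values for 14 of 44 genes, beside 5.98% of all genes. They lay above for 0, beside 5.87%. The 14 were Col1a1, Col1a2 and Col5a2, the fibril-associated Col12a1, Col14a1 and Col16a1, the type VI genes Col6a2, Col6a3 and Col6a5, the type VIII genes Col8a1 and Col8a2, and Col11a1, Col18a1 and Col28a1. In the mouse-number series KO lay below WT for 3 genes (Col20a1, Col24a1 and Col25a1, beside 10.7% of all genes) and above for 2 (Col17a1 and Col22a1, beside 9.72%). Marker sums of tendon, cartilage and bone were at 95.92, 157.8 and 119.6 CPM in the WT and 56.54, 47.18 and 69.37 CPM in the KO libraries of the age series. In the mouse-number series these sums overlapped, at 109 and 70.14 CPM in WT and 84.19, 67.17 and 116.9 CPM in KO. Over all 11 libraries 4 of the 6 tested markers had a log2 fold change below 0, beside 48.9% of all genes. Sums of lens, corneal and conjunctival, muscle, adipocyte, endothelial and RPE markers overlapped between WT and KO in the age series. The part of any of these tissues in the result was not tested.

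A test of the difference between the series (the interaction of genotype and series in edgeR) called 0 of 44 collagen genes at an adjusted p under 0.1, beside 0.019% of all genes. For Col12a1 the difference was -1.65 (SE 0.44, edgeR adjusted p = 0.541). At an unadjusted p under 0.05 there were 8 of 44 (Col1a1, Col1a2, Col5a2, Col6a3, Col8a2, Col12a1, Col16a1 and Col20a1), beside 2.71% of all genes. No single collagen gene was thus shown to respond to genotype differently in the 2 series.

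How many collagen genes had an unadjusted p under 0.05 and a lower level in KO depended on which libraries entered. With the series as a covariate there were 5 of 44 (Col5a2, Col14a1, Col15a1, Col16a1 and Col28a1), beside 5.23% of all genes, and 0 were called after adjustment, beside 0.0634%. There were 10 of 44 in the age series (3.46% of all genes) and 8 of 44 in that series without WT 4 (2.96%). In the mouse-number series there were 0 of 44 (2.65%), and the type IV gene Col4a3 was the 1 gene higher in KO at that level (0.622%). Against only the WT libraries low in Xist, WT 2 and WT 4, there were 3 (Col1a1, Col8a2 and Col16a1, beside 1.84%), and without KO 1 there were 8 (3.75%). Without WT 4 there were 0 of 44 (1.38%), and without the 3 libraries highest in crystallins also 0 (0.996%). With library sizes in place of TMM factors, 1 gene was higher in KO (0.539%). With the replicate number as a block there was 1 lower (2.28%).

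Lists of genes that make, process and bind collagen also held no called gene. Of 19 genes of chain folding and modification, 0 were called, 1 was lower at an unadjusted p under 0.05 and 17 had a log2 fold change below 0 (median -0.13). The most abundant was Ppib, a prolyl isomerase of the endoplasmic reticulum, at 90.4 ± 16.6 FPKM (SD, n = 11), and the smallest p was that of Plod1, a lysyl hydroxylase, at 44.8 ± 6.61 CPM in WT (n = 5) and 37.0 ± 4.51 CPM in KO (n = 6). Of 12 tested genes of propeptide removal and cross-linking, 3 were lower at that level and 10 below 0 (median -0.39). Sparc, a matrix protein that binds collagen, led them in level at 409.8 ± 137.1 FPKM, and Pcolce2, an enhancer of procollagen cleavage, had the smallest p, at 15.4 ± 0.847 CPM in WT and 11.5 ± 2.49 CPM in KO.

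Among 10 proteoglycans of fibrils, 3 were lower at an unadjusted p under 0.05 and 9 below 0 (median -0.41). Decorin (Dcn), which spaces type I fibrils, was at 262.7 ± 92.4 FPKM, and Prelp, which links basement membranes to fibrils, went from 96.7 ± 29.2 CPM in WT to 70.3 ± 10.1 CPM in KO without a call. Of 15 partners of type IV in basement membranes, 2 were lower at that level and 14 below 0 (median -0.23), with agrin (Agrn) the most abundant at 41.0 ± 7.39 FPKM. Lamb2, a laminin chain, had the smallest p of that list, at 104.5 ± 23.0 CPM in WT and 80.8 ± 9.49 CPM in KO. For 10 tested genes of collagen breakdown the counts were 1 and 9 (median -0.28). Timp3, the inhibitor of matrix proteases made by the RPE, led them in level at 135.6 ± 19.95 FPKM, and Timp1, a related inhibitor, had the smallest p, at 4.18 ± 6.09 CPM in WT and 1.59 ± 0.232 CPM in KO. The SD of Timp1 in WT was above its mean, and the two-sided exact permutation test gave p = 0.649. For 8 tested collagen receptors the counts were 1 and 6 (median -0.14), with Ddr1 the most abundant (46.4 ± 5.26 FPKM) and the integrin chain gene Itga11 the one with the smallest p (3.67 ± 1.255 CPM in WT and 2.13 ± 1.04 CPM in KO). Itga10, another integrin chain gene of that list, chosen after its values were seen, was the 1 gene of the 6 lists whose groups did not overlap (KO below WT, beside 0.0761% of all genes). It was at 8.95 ± 0.757 CPM in WT and 7.56 ± 0.311 CPM in KO, with a log2 fold change of -0.24 (SE 0.13), an edgeR adjusted p = 1.00 and p = 0.00216 in the exact permutation test, the smallest it can give. None of the 6 lists held a called gene or a gene higher in KO at an unadjusted p under 0.05, and the shares over all genes are those given above for the collagens. The lists were read only in the fit to all 11 libraries, and how far their counts depend on WT 4 or on the library series was not tested.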

How the data were processed

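RNA from 11 eyes was sequenced in pairs of 100 nt. The authors assigned reads to Gencode mouse genes on GRCm38 with RSEM 1.2.19 and deposited, for each gene and library, the expected count, which is not scaled, and the FPKM, scaled by effective length and mapped fragments. Expected counts were rounded and tested, and FPKM served only for levels between genes. Symbols from a later Gencode release on the same assembly matched 36639 identifiers (95.4%).

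The 1 CPM filter in 5 libraries came first, then TMM normalization and a genotype-only model (glmFit and glmLRT of edgeR 4.0.16, under R 4.3.3), with Benjamini-Hochberg adjustment over all 15767 genes and a threshold of 0.1. Printed CPM use TMM-scaled sizes. Exact permutation tests used log2 CPM with a prior count of 2. The fit was tested on simulated data. Alternatives were the quasi-likelihood test, DESeq2 1.42.0, other scalings and filters, unrounded counts, a block for replicate number, a term for or split by library series, WT libraries low in Xist, and each library left out.

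Libraries were matched to the series by proportional counts over 63 listed genes. Genes were named as the 2 most abundant of each class, the type IV and paired chains and the 5 with the smallest p. Of these, some are given by library and the others by range. Col12a1 and the remaining genes given by ranges were chosen after their values were seen. The collagen set and all gene and marker lists were chosen with earlier results of these data known. At most 6.07% of the exon bases of a collagen gene overlap another gene, and counting by strand is not given in the sources used here. The markers of 1 further cell type are not reported here.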

Additional observations from a re-analysis of the deposited data

Results flagged for a closer look

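Within WT and KO, the highest and lowest library of each of 28 named collagen genes was compared with its nearest neighbour by Dixon's criterion, in 56 groups. A library stood apart in 14 of them, each time as the highest. In 8 of the 14 it was WT 4, and in the other 6 KO 3, both highest in lens crystallins. WT 4 stood above the other WT libraries in Col1a1 (1052 CPM), Col1a2 (1179 CPM), Col4a1 (816.7 CPM), Col4a2 (542.3 CPM), Col4a3 (144.3 CPM), Col4a4 (64.17 CPM), Col4a5 (131.7 CPM) and Col16a1 (73.85 CPM). KO 3 stood above the other KO libraries in Col4a1 (625 CPM), Col4a2 (396.4 CPM), Col4a3 (113 CPM), Col4a5 (122 CPM), Col4a6 (64.12 CPM) and Col11a1 (53.42 CPM). These genes are not independent of each other, since each library contributes all of its values at once. The criterion assumes normal values and was applied to CPM without a log scale, so the 14 cannot be set against a chance rate.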

How the results depend on the processing

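No collagen gene was called in any fit to libraries of both series. Fits to the age series alone called 2, with WT 4 and without it. Collagen genes with an unadjusted p under 0.05 and lower in KO numbered 1 in the fit reported; 5 with the series as a covariate, 0 in the mouse-number series, 10 in the age series (8 without WT 4), 3 against WT libraries with Xist under 2 CPM, 3 without WT 4 with the covariate, 0 without the 3 libraries highest in crystallins, and 0 (without WT 4) to 8 (without KO 1) with 1 library left out. Those higher in KO numbered 1 in place of 0 with library size without TMM factors, in the mouse-number series, without WT 4 with the covariate, and without the 3 crystallin-high libraries with the covariate, and 0 to 1 with 1 library left out. Over all genes, 1 call became 0 in the quasi-likelihood test, 2 in DESeq2, with its size factors or with the filter of at least 1 count, 10 with the covariate, 7 and 38 in the mouse-number and age series (58 in the latter without WT 4), 4 against WT libraries low in Xist, 4 without WT 4 with the covariate, 10 without the crystallin-high libraries with the covariate, and 1 to 11 with 1 library left out.

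The replicate number as a block, which drops KO 6, gave 10 calls over all genes, 0 among the collagen genes and a median of -0.11. Deviations of same-numbered WT and KO libraries correlated at -0.332 to 0.633, above 0.1 in 3 of 5 pairs. Their mean was 0.223, beside -0.0447 for other numbers, and 3 of 5 WT libraries correlated best with their own number. All same-numbered pairs but number 3 also shared a series, so that pairing by number cannot be told apart from series. Signs turned for Col1a1 (0.32), Col1a2 (0.30), Col4a1 (0.71), Col4a2 (0.65) and Col12a1 (0.39) in the mouse-number series. For Col4a1 and Col4a2 they also turned without WT 4 (0.71 and 0.56, beside -0.74 and -0.67 without KO 3), with the covariate besides (0.71 and 0.54), and in the age series without WT 4 (0.72 and 0.44). Col3a1 was at 0.17 without the crystallin-high libraries and 0.25 with the covariate besides. Col17a1 was at -0.34 with the covariate, -1.03 in the age series, -0.76 against WT libraries low in Xist, and -0.14 (without WT 3), -0.09 (without KO 2), -0.07 (without WT 5 or KO 1), -0.05 (without KO 3) and -0.03 (without WT 1). None of these turned values was called, and the cause was not tested. The settings that leave out WT 4 with the covariate, the crystallin-high libraries, or WT 4 from the age series were chosen after seeing the data. Shares of classes and ranges of ratios moved by less than 1 SD or 1.5 times.

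Limits: the comparison rests on 5 and 6 libraries with a biological coefficient of variation of 26.1%, and no detection limit is given. The absence of a call in the fit to all 11 libraries does not show that small collagen differences are absent. Sex was partly confounded with genotype. Markers of lens, cornea and muscle differed between libraries, and the part of these tissues in the collagen levels was not tested. At 20.3 read pairs per CPM in the smallest library, Col6a5 and Col28a1 rest on few reads.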
